A study of Mus musculus with 2 samples.

Results

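The miR-23/27/24 family consists of paralogous groups of microRNA (miRNA) genes, in which the hairpins of miR-23, miR-27 and miR-24 stand in the same order on 1 strand. The 6 hairpin genes described here are Mir23a, Mir27a and Mir24-2 on chromosome 8 and Mir23b, Mir27b and Mir24-1 on chromosome 13. They were picked out by gene symbol from the 2202 annotated miRNA genes of the count tables, a rule that itself uses no measured value, and all 6 had at least 10 reads in each library. The tissue was left cerebral cortex of B6CASTF1/J mice, the first-generation hybrids of C57BL/6J and CAST/EiJ, aged 18 to 20 months, with no treatment or genotype contrast in the labels. RNA of under 30 nt was sequenced in 2 libraries, replicates 1 and 2 of a single group. The sample fields give the sex as male and the free text as female, so sex was not used. Both libraries point to 1 donor record, and nothing in the labels says that they came from separate animals, so the spread between them may be technical in part. All comparisons therefore lie between loci and between the libraries.

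A miRNA hairpin is cut from a longer primary transcript, and Dicer then releases a duplex of a 5p and a 3p arm, 1 of which is usually kept by an Argonaute protein and pairs with messenger RNAs through its seed, bases 2 to 8. The chromosome 8 and chromosome 13 clusters arose by duplication and are found across vertebrates. miR-23 is known for repressing lamin B1, which bears on myelination by oligodendrocytes, miR-27 for repressing regulators of lipid metabolism and adipocyte formation, and miR-24 for repressing genes of apoptosis and DNA repair. All of them are also known in endothelium, where the family influences vessel growth.

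The mature sequences from RefSeq (GRCm38.p6) are given first because they show how alike the arms of the clusters are, with the seed in capitals. The 3p arms are miR-23a-3p, miR-23b-3p, miR-27a-3p, miR-27b-3p and miR-24-3p. The table held 11 mature entries for the 6 loci, miR-24-3p being entered at both of its loci, and all run 5′ to 3′ here.
miR-23a-3p: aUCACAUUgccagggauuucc
miR-27a-3p: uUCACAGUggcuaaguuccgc
miR-27b-3p: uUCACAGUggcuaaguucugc
miR-24-3p: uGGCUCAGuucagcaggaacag
miR-24-2-5p: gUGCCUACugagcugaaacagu
miR-24-1-5p: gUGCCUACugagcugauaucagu
miR-27a-5p: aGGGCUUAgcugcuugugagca
miR-27b-5p: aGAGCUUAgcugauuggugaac
miR-23a-5p: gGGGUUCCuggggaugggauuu
miR-23b-5p: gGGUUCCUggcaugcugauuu

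The seeds of the miR-23 and miR-27 3p arms printed above are close to each other, and that of miR-24-3p is not. miR-27a-3p and miR-27b-3p share the seed UCACAGU, which no other mature entry of the table carries, and miR-23a-3p has UCACAUU, which differs from it at 1 of 7 seed bases (U7G from miR-23a-3p to miR-27a-3p, counted from 1 at the 5′ end). miR-24-3p has the seed GGCUCAG. miR-27a-3p and miR-27b-3p differ by a single substitution near the 3′ end, C19U, so their first 18 bases are the same and a read that ends before base 19 cannot be placed at 1 of them. Compared base by base without gaps, their 5p arms differ at 8 positions, the first of them G3A. An alignment with gaps, which could match more of their last bases, was not made for these arms. The 5p arms of the miR-24 loci share their first 16 bases and then part. miR-24-3p itself is the same 22 bases at both loci.

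The hairpins of the miR-24 loci show how far this identity reaches. In these sequences the capitals mark the longest run that both hairpins share, 28 bases that hold the whole of miR-24-3p.
Mir24-2: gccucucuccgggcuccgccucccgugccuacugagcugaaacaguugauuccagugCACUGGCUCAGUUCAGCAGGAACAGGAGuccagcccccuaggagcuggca
Mir24-1: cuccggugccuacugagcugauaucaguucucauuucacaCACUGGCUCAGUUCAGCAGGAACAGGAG
The corresponding longest run was 20 bases between Mir23a and Mir23b and 20 bases between Mir27a and Mir27b. For Mir23a and Mir23b it lies at bases 44 to 63 of each hairpin and takes in all but the last few of the 21 bases of miR-23a-3p. A read that lies within this run cannot be placed at 1 of them. Over the whole hairpin, Mir23a and Mir23b were identical in 73.75% of 80 aligned columns, Mir27a and Mir27b in 61.1% of 95, and Mir24-2 and Mir24-1 in 54.5% of 110. GC content was 56.0%, 59.8% and 61.7% for Mir23a, Mir27a and Mir24-2, against 48.6%, 47.9% and 51.5% for Mir23b, Mir27b and Mir24-1.

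The clusters also differ in their layout (mm10, GENCODE M21, coordinates counted from 1, all 6 hairpins on the plus strand). On chromosome 8, Mir23a (ENSMUSG00000065611.1) lies at chr8:84208518-84208592, Mir27a (ENSMUSG00000065444.1) at chr8:84208672-84208758 and Mir24-2 (ENSMUSG00000065541.1) at chr8:84208815-84208921, so the 3 hairpins span 404 bp with gaps of 79 and 56 bp. No gene contains them on their strand. The noncoding Gm26532 begins within the last 2 bases of Mir24-2. On chromosome 13, Mir23b (ENSMUSG00000065599.2) lies at chr13:63300484-63300557, Mir27b (ENSMUSG00000065475.2) at chr13:63300712-63300784 and Mir24-1 (ENSMUSG00000105904.1) at chr13:63301208-63301275, which makes a span of 792 bp with gaps of 154 and 423 bp. These 3 hairpins lie inside the protein-coding gene 2010111I01Rik, named Aopep in RefSeq, which encodes an aminopeptidase. Mir23b is intronic there, while Mir27b and Mir24-1 overlap annotated exons of some of its transcripts. Fancc, a gene of the Fanconi anaemia DNA repair pathway, covers the same stretch on the other strand.

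Sense reads at miRNA genes, from the column taken as the gene's strand by the layout and values of the tables, totalled 2381663 in replicate 1 and 4436398 in replicate 2, and levels are given as CPM, the counts scaled to this total. A read of this size covers about 1 mature arm, so counts were not divided by hairpin length. A count of 0 allows up to 1.26 CPM in replicate 1 and 0.676 CPM in replicate 2. These limits and the intervals below are 95% and cover counting error only, because PCR copies are not independent molecules. Among marker lists, the 12 neuronal loci (11 with reads in both libraries) summed to 91281 and 72395 CPM in replicates 1 and 2. Mir132 was the highest of them at a mean of 56498 CPM, and Mir128-1 stood at 16709 CPM. Mir9-1, Mir9-2 and Mir9-3 of the same list averaged only 15.3, 1.61 and 50.8 CPM. Mir124a-1, Mir124a-2 and Mir124a-3, also of that list, each averaged less than Mir9-2. The endothelial Mir126a averaged 17573 CPM, with Mir126b at 0. The liver marker Mir122 averaged 67.2 CPM. The 8 muscle loci (4 with reads in both libraries, 3 with no read) summed to 29.4 and 27.3 CPM. The 4 embryonic stem cell loci (2 with reads in both, 2 with no read) summed to 1.68 and 1.13 CPM. Reads that map to more than 1 locus were not counted at any gene, so the sums of all marker lists leave them out. Their part in the low values was not tested. The mural list of vessels summed to 10929 and 5799.8 CPM in replicates 1 and 2 (4 of 4 loci with reads in both), and the oligodendrocyte list to 4684 and 3502 CPM (3 of 4 loci with reads in both). The part of these cell types in the differences between the libraries was not tested. Cortex is a mixture of cells, and more cells that carry a miRNA cannot be told apart from more of it per cell.

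miR-23 held most of the counted reads of both clusters. Together the 6 hairpins held 67883 reads in replicate 1 and 155640 in replicate 2, which is 2.85% and 3.51% of miRNA reads, or 31792 ± 4653 CPM (SD, n = 2). Mir23a had 23579 and 52875 reads in replicates 1 and 2, a level of 9900.2 and 11918 CPM, and ranked 18th of all genes by mean level. Mir23b had 37408 and 93194 reads, a level of 15707 and 21007 CPM, and ranked 12th. In each library Mir23a lay below Mir23b.

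The miR-27 hairpins were far lower and far less equal. In replicates 1 and 2 Mir27a had 713 and 657 reads, which is 299 and 148 CPM. Mir27b had 5931 and 8381 reads, which is 2490.3 and 1889 CPM. Mir27a ranked 160th and Mir27b 61st by mean level. Unlike both miR-23 hairpins, both miR-27 hairpins had the higher CPM in replicate 1.

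The miR-24 hairpins had the fewest reads of each cluster. Counts of Mir24-2 were 155 and 346 reads in replicates 1 and 2, a level of 65.1 CPM (exact Poisson interval 55.2 to 76.2) and 78.0 CPM (69.99 to 86.7). Mir24-1 had 97 and 187 reads, a level of 40.7 CPM (33.0 to 49.7) and 42.2 CPM (36.3 to 48.6). Here the chromosome 8 locus was the higher one in each library. miR-24-3p cannot be placed at 1 locus by its sequence, and the tables keep multimapping reads apart from all genes, 2863078 reads in replicate 1 and 5481355 in replicate 2. How many of those are miR-24-3p is not recorded there, so the 252 and 533 reads counted at the miR-24 loci are no measure of total miR-24, and the part of multimapping in their low counts was not tested.

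By mean level the order was Mir23b at 18357 ± 3748 CPM, Mir23a at 10909 ± 1427 CPM, Mir27b at 2189.7 ± 425 CPM, Mir27a at 224 ± 107 CPM, Mir24-2 at 71.5 ± 9.13 CPM and Mir24-1 at 41.4 ± 1.01 CPM (SD, n = 2 each). For each of the 5 neighbouring steps in this order the libraries did not overlap, and each difference in means was larger than the larger of the SDs. The narrowest steps were 1.68-fold between Mir23b and Mir23a and 1.73-fold between Mir24-2 and Mir24-1. With 2 libraries an exact sign-flip test cannot give a two-sided p below 0.5, so no test of this order is given.

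**Figure D1:**
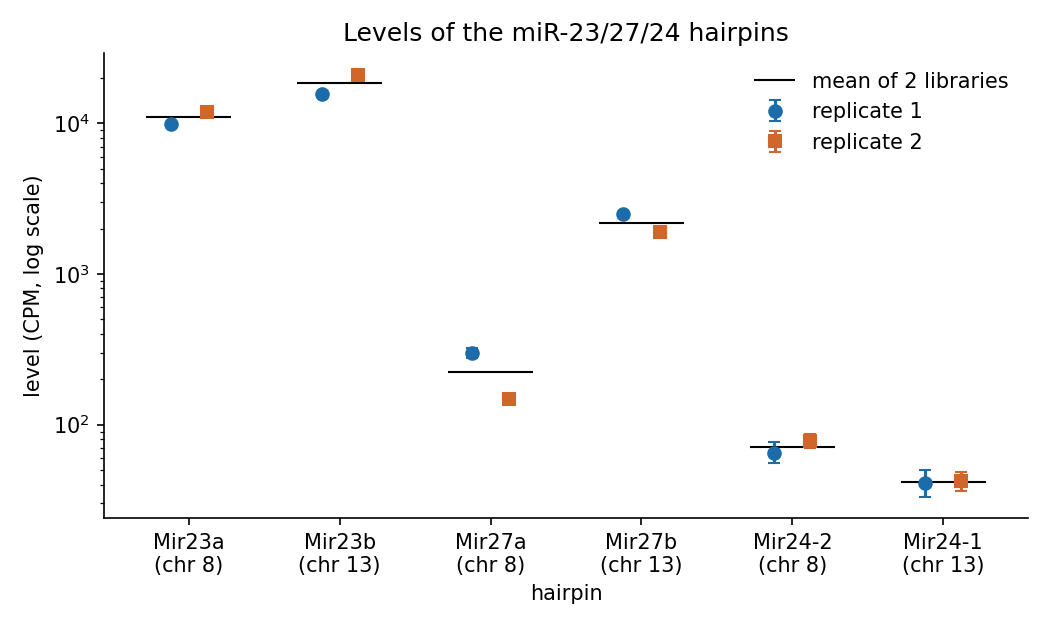
Level of each hairpin in CPM on a log axis, with chromosome 8 left of chromosome 13 in each paralogous pair. Points are the libraries, vertical bars the 95% exact Poisson intervals of the counts and horizontal lines the means of 2 libraries. The chromosome 8 hairpin is the lower one for miR-23 and miR-27 and the higher one for miR-24.

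The chromosome 8 cluster was set against the chromosome 13 cluster within each library, which needs no scaling between libraries. Summed over its hairpins, the chromosome 8 cluster reached 10265 and 12145 CPM in replicates 1 and 2, against 18238 and 22938 CPM for the chromosome 13 cluster. The chromosome 8 share of all reads of the family was 36.0% in replicate 1 and 34.6% in replicate 2, with exact binomial intervals of 35.7 to 36.4 and 34.4 to 34.9. The log2 ratio of chromosome 8 over chromosome 13 averaged -0.87 ± 0.06 (SD, n = 2).

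The balance of the clusters was not the same for each member. For miR-23 the log2 ratio of Mir23a over Mir23b was -0.67 in replicate 1 and -0.82 in replicate 2, a mean of -0.74 ± 0.11 (SD, n = 2), with Mir23a giving 38.7% and 36.2% of the pair's reads. For miR-27 the log2 ratio of Mir27a over Mir27b was -3.06 and -3.67, a mean of -3.36 ± 0.44. Mir27a gave 10.7% and 7.27% of the pair's reads, with exact binomial intervals of 9.997 to 11.5 and 6.74 to 7.82. For miR-24 the log2 ratio of Mir24-2 over Mir24-1 was 0.68 and 0.89, a mean of 0.78 ± 0.15. Mir24-2 gave 61.5% (55.2 to 67.5) and 64.9% (60.7 to 69.0) of the pair's reads. In both libraries the intervals of the 3 pairs lay apart from each other. The reads at the miR-24 loci leave out what was set aside as multimapping, so their ratio need not be that of the hairpins. Short reads that fit both loci of the miR-23 or miR-27 pair can be left out in the same way, and their number is not recorded.

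**Figure D2:**
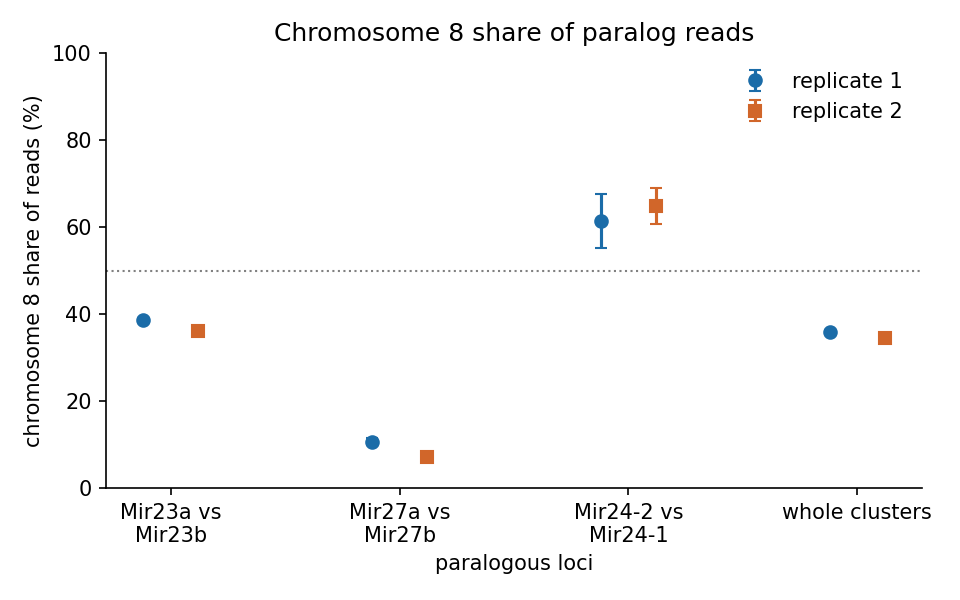
Share of reads that came from the chromosome 8 locus, in percent of the reads of both paralogous loci, for each pair and for the whole clusters. Points are the libraries, bars the 95% exact binomial intervals, and the dotted line marks equal reads from both chromosomes. miR-27 lies lowest at 10.7% and 7.27%, and miR-24 is the pair above the line at 61.5% and 64.9%.

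The chromosome 8 share also differed between the libraries by more than counting noise for 2 of the 3 pairs. The log2 ratio of Mir27a over Mir27b was higher in replicate 1 than in replicate 2 by 0.62 ± 0.08 (counting SE), with a two-sided Fisher's exact p of 1.1e-13, adjusted over the 4 comparisons of 3 pairs and the sum. The same difference was 0.15 ± 0.01 for miR-23 (Fisher's exact adjusted p = 1.64e-25) and 0.09 ± 0.01 for the cluster sums (Fisher's exact adjusted p = 2.81e-10). For miR-24 it was -0.21 ± 0.23 (Fisher's exact adjusted p = 0.382), which at this depth leaves room for differences of the size seen for miR-23. These tests compare the libraries, not conditions, and allow for no spread between replicates.

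Within a cluster the hairpins lie close together on 1 strand, so their counts were also set against each other. On chromosome 8, Mir23a took 96.4% of the cluster's reads in replicate 1 and 98.1% in replicate 2, Mir27a took 2.92% and 1.22%, and Mir24-2 took 0.634% and 0.642%. On chromosome 13, Mir23b took 86.1% and 91.6%, Mir27b took 13.7% and 8.24%, and Mir24-1 took 0.223% and 0.184%. miR-27 was thus a larger part of the chromosome 13 cluster in both libraries. Per 100 reads of miR-23 in the same cluster there were 3.02 reads of Mir27a in replicate 1 and 1.24 in replicate 2, and 15.9 and 8.99 reads of Mir27b. Replicate 1 exceeded replicate 2 in both ratios, with log2 differences of 1.28 ± 0.08 for Mir27a and 0.82 ± 0.03 for Mir27b (counting SE). Mir24-2 per 100 reads of Mir23a stayed at 0.657 and 0.654, a log2 difference of 0.01 ± 0.14. Mir24-1 per 100 reads of Mir23b was 0.259 and 0.201, a log2 difference of 0.37 ± 0.18.

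**Figure D3:**
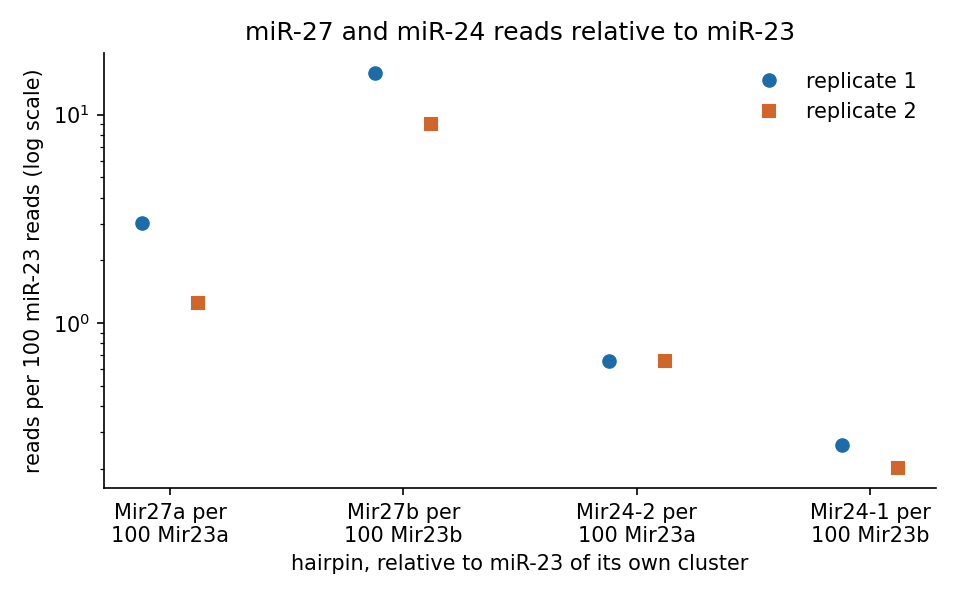
Reads of the miR-27 and miR-24 hairpins per 100 reads of the miR-23 hairpin of the same cluster, on a log axis, chromosome 8 left of chromosome 13. Points are the libraries. Both miR-27 hairpins are higher in replicate 1, and Mir27b stands above Mir27a in each library.

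Each hairpin was then compared between the libraries, with replicate 1 over replicate 2 and effective library sizes. A two-sided exact binomial test with Benjamini-Hochberg adjustment, run on the 472 genes whose reads summed to 10 or more, called 246 of them, or 52.1%, and 4 of the 6 hairpins. Called higher in replicate 1 were 24.6% of all tested genes and 2 hairpins, both of miR-27, and called higher in replicate 2 were 27.5% of all tested genes and 2 hairpins, both of miR-23. With 6 loci a count of 4 is near that background. Mir27a had a log2 ratio of 1.04 ± 0.08 (counting SE, exact binomial adjusted p = 1.52e-39) and Mir27b one of 0.43 ± 0.02 (exact binomial adjusted p = 9.76e-66). Mir23a had a log2 ratio of -0.24 ± 0.01 (exact binomial adjusted p = 3.19e-101) and Mir23b one of -0.39 ± 0.01 (exact binomial adjusted p at or under 1e-300, the smallest printed). Mir24-2 at -0.23 ± 0.14 (exact binomial adjusted p = 0.167) and Mir24-1 at -0.02 ± 0.18 (exact binomial adjusted p = 1) did not pass. The median log2 ratio was -0.12 over the 6 hairpins and -0.07 over all tested genes, and the median size of the log2 ratio was 0.32 over the hairpins and 0.45 over all tested genes. The ratio of Mir27a was exceeded in size by 84 of the 472 genes. By this test both miR-23 hairpins were the higher in replicate 2 and both miR-27 hairpins in replicate 1, on either chromosome.

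The binomial test allows for counting noise alone. edgeR's exact test with the common dispersion of these libraries, a biological coefficient of variation of 0.351, called 2 of 472 genes or 0.424%, and none of the 6 hairpins (edgeR exact adjusted p = 1 for each), while 28 genes had an unadjusted p under the threshold. The dispersion was estimated from the same 2 libraries that the test then compared, so their differences were already counted as noise. Few calls were thus built in, and their number says nothing about the hairpins. The coefficient carries edgeR's name for it, and the spread behind it may be technical in part. This test sets 1 library against 1 and gives no replicate evidence either.

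**Figure D4:**
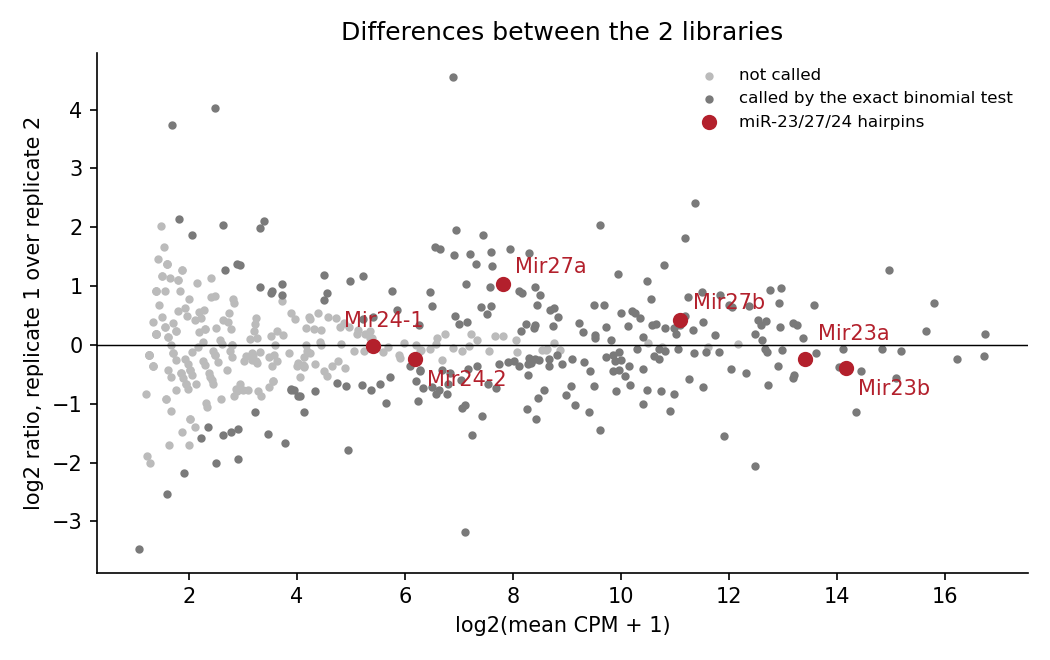
Log2 ratio of replicate 1 over replicate 2 against log2(mean CPM + 1) for the 472 tested genes, dark grey where the exact binomial test called them and light grey where it did not. The 6 hairpins are in red. Mir27a at 1.04 and Mir27b at 0.43 lie above 0, Mir23a and Mir23b below it.

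Other miRNA genes near the clusters were few. Within 100 kb, chromosome 8 holds Mir181c and Mir181d, 29557 and 29731 bp away on the other strand, and Gm25110, which had no read. Mir181c is a member of the miR-181 family known in immune cells and neurons, and had levels of 1685 and 1361 CPM in replicates 1 and 2. Mir181d stood at 1446 and 1435 CPM. Their summed level was thus above Mir27a and Mir24-2 and below Mir23a in both libraries. On chromosome 13 the only other miRNA gene within 100 kb was Mir3074-1, which covers Mir24-1 on the minus strand.

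Both miR-24 loci have such a partner on the other strand, Mir3074-2 at Mir24-2 and Mir3074-1 at Mir24-1. The annotated miR-3074-5p is shown because 20 of its 22 bases, in capitals, are the reverse complement of bases of miR-24-3p.
miR-3074-5p: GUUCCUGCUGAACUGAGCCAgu
Mir3074-2 had no read in either library, which allows up to 1.26 and 0.676 CPM in replicates 1 and 2. Mir3074-1 had 14 reads in replicate 1 and 12 in replicate 2, or 5.88 and 2.70 CPM. The same sequence is entered at both loci, so reads of miR-3074-5p can also be among the multimapping ones. In the column that counts both strands together, the values were 0 for Mir24-2 and Mir24-1 in both libraries while those of the miR-23 and miR-27 loci equalled their sense counts. The part of the overlap with Mir3074-2 and Mir3074-1 in these zeros was not tested.

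The genes with the most similar levels were found by distance in log2(CPM + 1) over the 2 libraries. Nearest to Mir23a was Mir328 at 10151 and 12356 CPM in replicates 1 and 2 (distance 0.06), and nearest to Mir23b was Mir128-1, a neuronal miRNA, at 14354 and 19064 CPM (distance 0.19). Nearest to Mir27b was Mir434 of the imprinted chromosome 12 region at 2399 and 1940.3 CPM (distance 0.07). Mir27a, with its lower level in replicate 2, had the most distant neighbour, Mir496a at 252 and 130 CPM (distance 0.31). Mir345 at 63.4 and 75.3 CPM was nearest to Mir24-2 (distance 0.06), and Mir155, an miRNA of activated immune cells, at 41.99 and 39.7 CPM was nearest to Mir24-1 (distance 0.10). In the order of mean level Mir23b stood between Mir125a and the endothelial Mir126a, and Mir23a between Mir328 and Mir191. With 2 libraries such likeness is mainly one of level.

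The unevenness within the clusters was compared with 10 other clusters of paralogous miRNAs, those of miR-99 with miR-125, miR-29, miR-181 and miR-15/16. The highest hairpin exceeded the lowest 152-fold in replicate 1 and 153-fold in replicate 2 in the chromosome 8 cluster, and 386-fold and 498-fold in the chromosome 13 cluster. Among the 10 others the ratio lay between 1.16-fold and 1.05-fold for Mir181c and Mir181d, of which Mir181d was the higher in replicate 2, and 316-fold and 258-fold for Mir29a over Mir29b-1. The miR-24 loci are the lowest of both clusters, and their counts leave out multimapping reads. Without them the ratio in replicates 1 and 2 was 33.1-fold and 80.5-fold for Mir23a over Mir27a, and 6.31-fold and 11.1-fold for Mir23b over Mir27b. Clusters of 3 and of 2 loci are compared here, which bears on such ratios, and no test of the difference was made.

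The sequence shared with another locus was also listed for the loci of these clusters. Of the 23 loci in the other clusters, 13 share a run of at least 22 bases with another annotated hairpin, and their mean levels lay between 10.7 and 2029 CPM with a median of 203 CPM. The other 10 lay between 275 and 36976 CPM with a median of 4705 CPM. Among the miR-23/27/24 loci only Mir24-2 and Mir24-1 share such a run, at 71.5 and 41.4 CPM, against 224 to 18357 CPM for the other 4. The length of 22 bases was chosen after the levels were seen, and these values are a description.

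**Figure D5:**
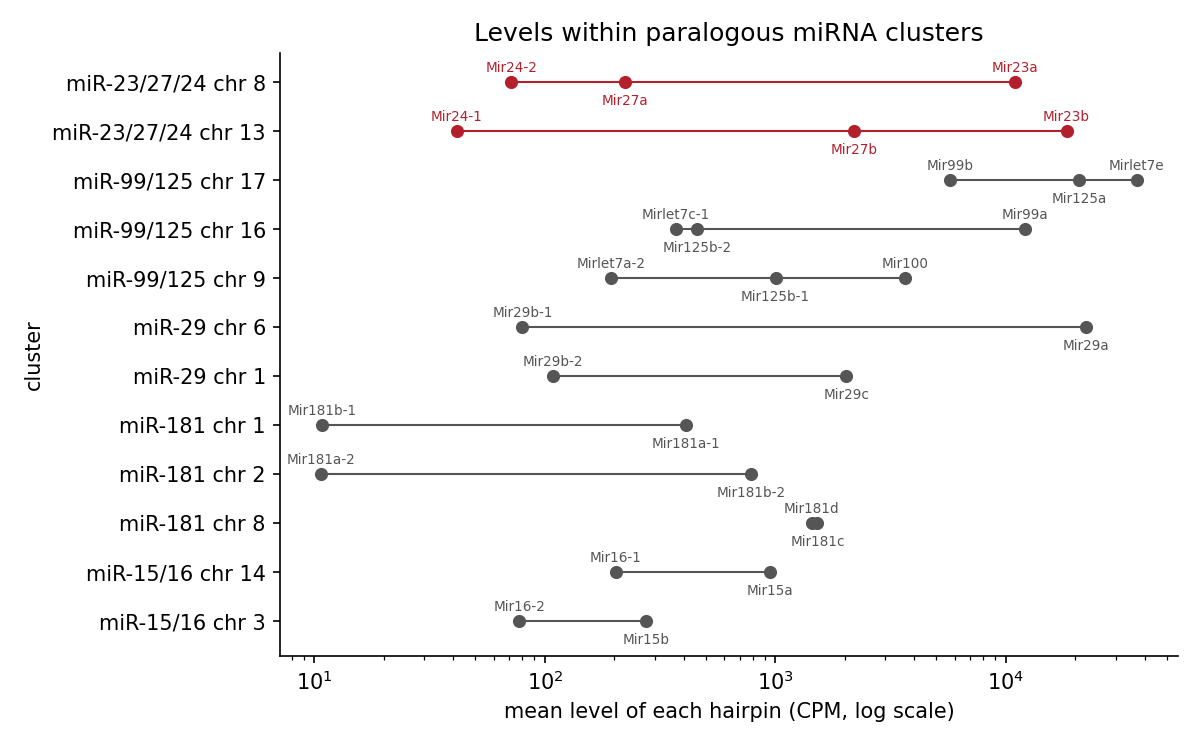
Mean level over the 2 libraries of each hairpin in CPM on a log axis, 1 line per cluster, with miR-23/27/24 in red and the other 10 clusters in grey. The line joins the lowest and the highest hairpin. The chromosome 8 cluster runs from 71.5 to 10909 CPM and the chromosome 13 cluster from 41.4 to 18357 CPM.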

How the data were processed

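Small RNA libraries of 2 replicates of 1 group were analysed from the authors' deposited tables of read counts per miRNA gene, which are not normalized. The notes deposited beside the tables name mm10 and GENCODE M21. Neither aligner nor trimming is given in the sources used here. The counter is not given either, and the sense column was inferred from the tables' layout and values. The 4 summary lines (unmapped, multimapping, no-feature and ambiguous reads) stayed out of library sizes; multimapping reads were 35.6% of reads in replicate 1 and 44.8% in replicate 2.

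CPM, log2 ratios, exact intervals and Fisher's exact tests used Python 3.11.15, scipy 1.17.1 and pandas 2.3.3. TMM factors (0.990 and 1.01, from genes whose reads summed to 10 or more) came from edgeR 4.0.16 in R 4.3.3, and log2 ratios between libraries added 0.5 reads. A quasi-likelihood test needs more than 1 group and was not run. The binomial test was checked on data of 472 genes simulated for the comparison of the libraries, with counting noise only. It called 54%, 72%, 88% and 100% of sets of 50 genes changed 1.5-, 2-, 4- and 8-fold, and 1.10% of the 272 left unchanged. The real libraries differ by more than counting noise, so these rates do not carry over to them.

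The loci, lists and comparison clusters were chosen with earlier results of these data known. Named are the 6 loci, miRNA genes overlapping them or within 100 kb, the nearest gene in level and the neighbours in rank, and the comparison clusters. The marker lists not described in the text summed to 1965 and 1897 CPM for blood in replicates 1 and 2. All 6 hairpin sequences of RefSeq equal those of GENCODE. Alternatives covered strand, scaling, filters, dispersion and each library alone.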

Additional observations from a re-analysis of the deposited data

Results flagged for a closer look

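Reads on the strand opposite Mir24-1, a column that the levels do not use, numbered 14 in replicate 1 and 12 in replicate 2, more than the 3 counts that a count of 0 allows. The tables give the same counts for Mir3074-1 on its own strand. The other 5 hairpins had no read on the opposite strand in either library.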

How the results depend on the processing

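Of 80 recomputed values of levels, ratios, shares and counts of called genes, 69 stayed the same and 11 moved. Same meant within 1 SD of the value over 2 libraries for levels, ratios and shares, with the sign kept for ratios. For tests of the share between libraries it meant the same direction and side of the threshold. For counts of called genes it meant a set fold range around the main count. With 2 libraries each lies within 1 SD of their mean, so the 16 values without replicate 1 could not count as moved. Nor could the 16 without replicate 2. The 4 ratios from the summed reads of both libraries could not move either, because each lies between the ratios of the libraries. On both strands together the miR-23 and miR-27 ratios rest on the same counts, so they were also bound to stay. Scaled to all reads of a library in place of its miRNA reads, Mir23a stood at 3626 and Mir23b at 6133, Mir27a at 71.2 and Mir27b at 711, and Mir24-2 at 23.8 and Mir24-1 at 13.7, a change of scale that leaves the order as it was. Counted on both strands together, Mir24-2 and Mir24-1 stood at 0 CPM and 0% of their clusters, and their ratio could not be given. edgeR's exact test, with its dispersion taken from the same libraries that it compared, called 2 genes in place of 246. With RLE size factors the log2 ratio between the libraries of Mir24-1 turned to 0.057 (binomial adjusted p = 0.918 there, 0.651 to 1 over its alternatives), and the cause was not tested. Under TMM factors over all annotated genes, chosen after seeing the data, Mir24-2 passed the binomial test (adjusted p = 0.034, against 0.109 to 1 elsewhere). Leaving out a library gives the other library's value, as printed for each. No paired analysis was possible because the labels give 1 group. Depth limits the miR-24 loci most, with 97 to 346 reads.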
